A study of Mus musculus with 6 samples.

Results

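MHC class II molecules carry peptides of extracellular and endosomal origin to the cell surface, where CD4+ T cells read them. An alpha and a beta chain pair in the endoplasmic reticulum with the invariant chain, travel to acidic compartments, and exchange a remnant of the invariant chain for peptide with the help of the DM dimer. Transcription of the whole set depends on Ciita, the class II transactivator, which interferon-gamma can induce in cells that are not professional antigen presenting cells. In the small intestine the genes are expressed by crypt stem cells and enterocytes as well as by dendritic cells, macrophages and B cells.

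Here 7 class II genes, taken by their symbols, were followed among 17526 genes in the table: H2-Aa, H2-Ab1 and H2-Eb1, which encode antigen presenting chains, Cd74, the invariant chain, H2-DMa and H2-DMb1, the DM dimer, and Ciita. All 7 were abundant enough to be tested, out of 12943 tested genes. The RNA was taken from crypts of the mouse small intestine, where stem cells and Paneth cells reside. The study had 3 floxed control libraries, from Fpr2f/f mice whose genotype field reads WT, and 3 knockout libraries, from mice named Fpr2VKO that lack Fpr2 (formyl peptide receptor 2) in the intestinal epithelium. By its title the study asks how Fpr2 acts on stem cell proliferation and differentiation. No source used here gives the promoter that drives the deletion, the strain, the age or any pooling of animals.

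Total estimated counts ran from 11108511 to 16859902 a library. Fpr2 itself was not analysed here, so it could not serve as a check of the genotypes. Whether each library is a separate animal is not stated. The p-values thus set each group difference against the spread between these libraries, and that spread may be technical. Epithelial genes were high in each library: Epcam, an epithelial adhesion molecule, ranged from 1048 to 1257 CPM (counts scaled to library size, with TMM factors) among floxed controls and from 1338 to 1352 CPM among knockouts. Floxed controls 1 and 3 stood apart by high lymphocyte transcripts, given below. Floxed control 2 and knockout 1 stood apart on clock genes: Per2 was at 14.6 and 22.4 CPM in them and at 39.1 to 71.9 CPM in the other 4 libraries.

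Class II promoters share an X box and, closer to the start site, a Y box that holds an inverted CCAAT, and proteins bound to both form the platform for Ciita. RefSeq promoter windows (GRCm38.p6) were matched for H2-Aa, H2-Eb1, H2-DMb1 and H2-DMa. The stretches around the boxes of 3 members and of H2-DMb2, the neighbouring copy of H2-DMb1, are printed because H2-DMb1 and H2-DMb2 varied differently between libraries while H2-Aa, H2-Eb1 and H2-DMb1 varied together. Capitals mark GATGATGCT or TGACGTCA, within the X box region, and TGATTGG, the Y box core. The strands are minus for H2-Aa and plus for the others, and positions are chr17:34287847-34287917, chr17:34305762-34305832, chr17:34153083-34153154 and chr17:34145112-34145183 in the order printed.
H2-Aa: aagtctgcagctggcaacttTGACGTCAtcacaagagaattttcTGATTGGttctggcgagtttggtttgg
H2-Eb1: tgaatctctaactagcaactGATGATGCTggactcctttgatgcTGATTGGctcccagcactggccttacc
H2-DMb1: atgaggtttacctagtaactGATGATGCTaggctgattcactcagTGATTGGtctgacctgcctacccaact
H2-DMb2: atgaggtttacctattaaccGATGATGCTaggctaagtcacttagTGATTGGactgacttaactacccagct

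In these 4 promoters the gap between both capital runs was 15 bases in H2-Eb1 and 16 bases in H2-Aa, H2-DMb1 and H2-DMb2. The printed H2-DMb1 and H2-DMb2 stretches were identical at 62 of 72 aligned positions (86.1%). Among 32851 windows of 250 bases before a start site, 7.23% held TGATTGG on either strand, 0.222% held GATGATGCT and 1.55% held TGACGTCA. TGATTGG together with either of the others was found in 0.143% of the windows. The motifs were chosen after the sequences were read, and each match is a match of letters only. Neither of the 2 H2-DMa windows, which start at 34122582 and 34125268, held TGATTGG.

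The knockout libraries as a group were not separated from the floxed controls by any of the 7 class II members. None of the 7 members passed edgeR's quasi-likelihood test over all genes (0 of 7, against 0.0155% of all genes tested), and 0 of 7 had an unadjusted p under 0.05, against 13.7% of all genes. DESeq2 called 0 of the 7 as well, against 2.42% of its tested genes. The groups overlapped for each of the 7 members, while they did not overlap for 17.3% of all genes. All 7 log2 fold changes were negative, with a median of -0.30 beside -0.013 over all genes tested, and 51.9% of all genes had a negative value. A single library, knockout 3, was the lowest of the 6 for each of the 7 members, whereas it was the lowest for 21.1% of all genes. Without it the members' median was 0.0036. Floxed control 2 was the highest library for 5 of the members, against 21.4% of all genes. In RNA from whole crypts, fewer cells of a type and less RNA per cell cannot be told apart.

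**Figure D1:**
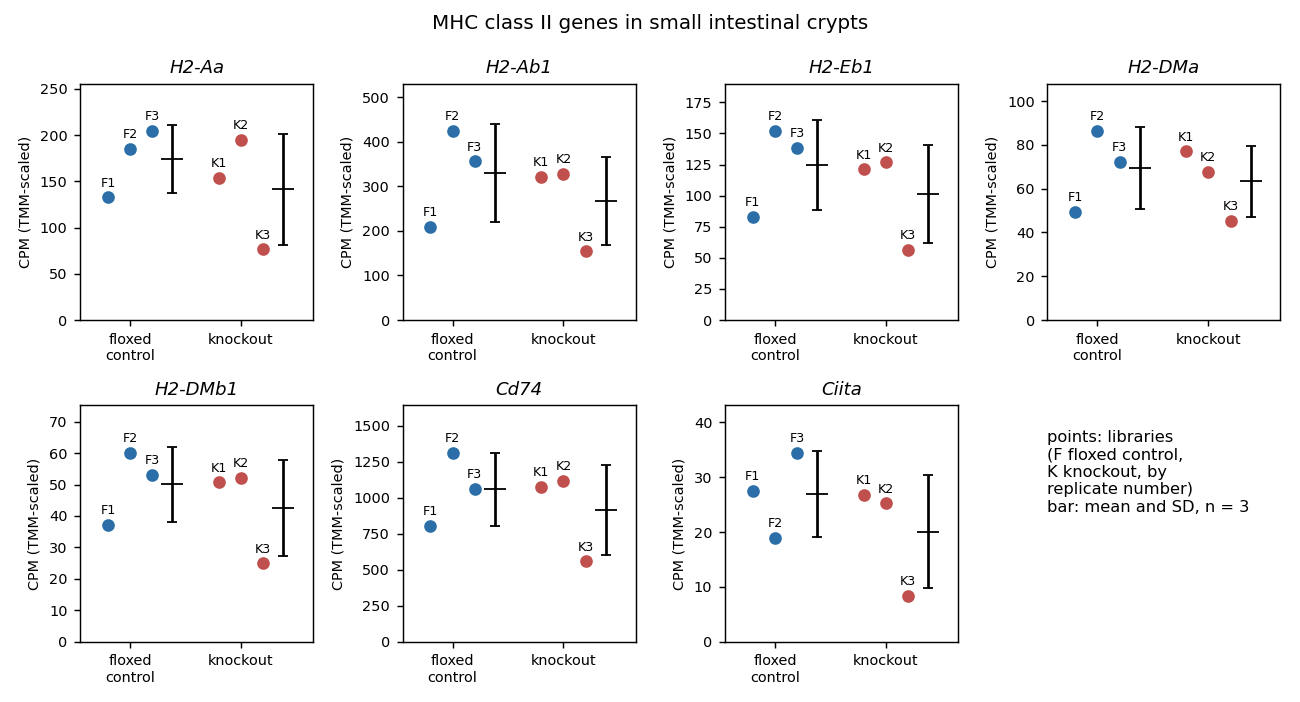
Level of each of the 7 class II genes (y axis, TMM-scaled CPM from 0) in the 3 floxed control (F, blue) and 3 knockout (K, red) libraries, with the mean and SD of each group (black, n = 3). Knockout 3 is the lowest point in every panel, and the remaining knockouts lie within the range of the floxed controls.

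Cd74 (Entrez 16149, chr18:60803849-60812652, GRCm38.p6) is the invariant chain, which guards the peptide groove and guides class II molecules to the endosome. Its levels in libraries 1, 2 and 3 were 802, 1312 and 1058 CPM for the floxed controls and 1075, 1115 and 558 CPM for the knockouts. Floxed control 2 was the highest library and knockout 3 the lowest, and the other 2 knockouts lay inside the floxed range. The group means were 1058 ± 255 and 916 ± 311 CPM (SD, n = 3 each). The log2 fold change was -0.21 ± 0.30 (SE) with a 95% interval from -0.86 to 0.45 (adjusted p = 0.817 by edgeR).

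H2-Ab1 (14961, chr17:34263227-34269418) is the beta chain of the I-A molecule. In the same library order, the floxed controls gave 209, 425 and 356 CPM. The knockouts gave 321, 329 and 154 CPM. Floxed control 1 and knockout 3 were low, and floxed controls 2 and 3 were above each knockout. Its means of 330.0 ± 110.1 and 268 ± 98.7 CPM (SD, n = 3) gave a log2 fold change of -0.30 ± 0.32 (SE; interval -1.01 to 0.40, adjusted p = 0.738 by edgeR).

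H2-Aa (14960, chr17:34282744-34287823) encodes the alpha chain that pairs with H2-Ab1. It measured 133, 185 and 205 CPM in controls and 154, 194 and 76.4 CPM in knockouts. Here floxed control 3 was the highest library, and knockout 2 lay between floxed controls 2 and 3. The log2 fold change was -0.30 ± 0.30 (SE; interval -0.96 to 0.37, adjusted p = 0.723 by edgeR).

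H2-Eb1 (14969, chr17:34305867-34316674), the beta chain of the I-E molecule, measured 83.1, 152 and 139 CPM against 121, 127 and 56.2 CPM. Knockouts 1 and 2 again lay between floxed control 1 and floxed control 3. Its log2 fold change of -0.30 ± 0.31 (SE; adjusted p = 0.729 by edgeR) was close in size to those of H2-Aa and H2-Ab1.

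H2-DMa (14998, chr17:34119693-34139101) and H2-DMb1 (14999, chr17:34153191-34160229) form the DM dimer, which removes the invariant chain remnant and edits bound peptides. H2-DMa gave 49.4, 86.4 and 72.4 CPM in floxed libraries and 77.1, 67.7 and 45.3 CPM in knockout libraries. It varied least of the members, with 1.91 times between its highest and lowest library, and its log2 fold change was -0.13 ± 0.24 (SE; interval -0.67 to 0.40, adjusted p = 0.865 by edgeR). H2-DMb1 gave 37.0, 60.1 and 53.0 CPM against 50.7, 52.1 and 24.9 CPM. Both genes had floxed control 2 as the highest and knockout 3 as the lowest library. For H2-DMb1 the log2 fold change was -0.23 ± 0.28 (SE; adjusted p = 0.771 by edgeR).

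Ciita (12265, chr16:10480014-10531064), the transactivator on which the other members depend, was the most variable. Floxed libraries measured 27.5, 18.9 and 34.5 CPM and knockout libraries 26.7, 25.2 and 8.28 CPM. Knockout 3 was again the lowest, but floxed control 2, the highest library for 5 of the members, was the lowest of the floxed controls for Ciita. The span between its highest and lowest library was 4.16 times, against 1.91 to 2.75 times for the other 6. Its log2 fold change was -0.42 ± 0.38 (SE; interval -1.25 to 0.41, adjusted p = 0.685 by edgeR). Ciita is transcribed from several promoters with different first exons, and the table gives a single value for the gene.

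Within the knockout group, knockout 3 lay well under the other 2 libraries. The mean of knockouts 1 and 2 was 3.14 times the value of knockout 3 for Ciita, 2.28 times for H2-Aa, 2.20 times for H2-Eb1 and 2.11 times for H2-Ab1. For H2-DMb1, Cd74 and H2-DMa it was 2.06, 1.96 and 1.60 times. Among the floxed controls, the mean of libraries 2 and 3 exceeded floxed control 1 by 1.47 to 1.87 times for the 6 members other than Ciita, for which it was 0.970 times. The within-group SD on the log2 scale ran from 0.40 for H2-DMa to 0.74 for Ciita, and 80.2% to 96.4% of all tested genes had a smaller one. The median over all genes was 0.26.

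**Figure D2:**
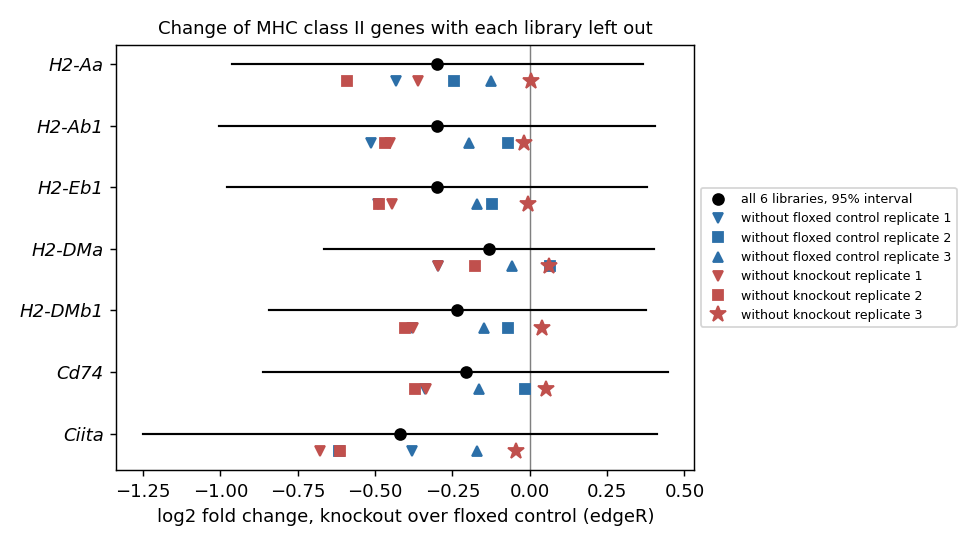
Log2 fold change of each member, knockout over floxed control (x axis), with all 6 libraries and its 95% interval (black) and with each library left out in turn (coloured markers). Each interval spans 0, and the values without knockout 3 (red stars) lie between -0.044 and 0.063.

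With knockout 3 left out, the log2 fold change was 0.0036 for H2-Aa, -0.020 for H2-Ab1, -0.0061 for H2-Eb1 and 0.063 for H2-DMa. It was 0.041 for H2-DMb1, 0.053 for Cd74 and -0.044 for Ciita. The sign thus turned for 4 of the 7 members, and H2-Ab1, H2-Eb1 and Ciita stayed negative at values closer to 0. H2-DMa also turned without floxed control 2, at 0.065. Leaving out floxed control 2 brought the members' median to -0.072. In that setting 955 genes of the table were called by edgeR and 24.3% of all genes had an unadjusted p under 0.05, yet 0 of the 7 members had either. Without floxed controls 1 and 3, which leaves 1 control library assumed to vary like the knockouts, the median was -0.44 and 0 members were called.

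Markers of other crypt cells were low in the knockout libraries. Of 11 genes marking crypt base stem cells, knockout 3 was the lowest library for 9, and of 13 Paneth cell genes it was the lowest for 9, against 21.1% of all genes. Lgr5, the Wnt-pathway receptor that defines these stem cells, was at 97.7, 41.6 and 66.6 CPM (floxed) and at 35.04, 36.3 and 20.3 CPM (knockout). Summed stem cell genes came to 2461 to 3196 CPM in floxed controls and 1744 to 2400 CPM in knockouts, and summed Paneth genes to 81080 to 160153 and 27467 to 42009 CPM. Unlike the class II sums, the highest stem cell sum was that of floxed control 1 and the highest Paneth sum that of floxed control 3. Averaged over genes as log2 levels centred on each gene's mean, the Paneth list was at -0.97 in knockout 2 and -0.998 in knockout 3, while the class II members were at 0.23 and -0.89. All 11 stem cell genes and all 13 Paneth genes had negative log2 fold changes, with medians of -0.33 and -1.69, and 4 and 13 had an unadjusted p under 0.05 (lower for 9.63% of all genes). By edgeR 0 of 11 and 0 of 13 were called, and by DESeq2 1 of 11 and 13 of 13, against 2.42% of all genes. The groups did not overlap for 6 and 13 of them, against 17.3% of all genes. Of 15 enterocyte genes 0 were lowest in knockout 3, and 2 of 8 tuft cell genes were. Log2 fold changes were negative for 13 and 8 of them, with medians of -0.23 and -1.03. At an unadjusted p under 0.05 by edgeR, 3 and 7 were lower (9.63% of all genes). The groups did not overlap for 1 and 5 (17.3% of all genes). By edgeR 0 of 15 and 0 of 8 were called, and by DESeq2 2 and 4 (2.42% of all genes). The part of these cells in the class II levels was not tested.

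Per length of transcript the members kept the same order in 6 of 6 libraries: Cd74, H2-Ab1, H2-Aa, H2-Eb1, H2-DMa, H2-DMb1 and Ciita. In the floxed controls these levels were 750.0 ± 181, 272 ± 90.9, 154 ± 33.0, 74.7 ± 21.9, 41.9 ± 11.3, 35.6 ± 8.42 and 4.49 ± 1.30 CPM per kilobase (SD, n = 3). In the knockouts they were 650 ± 220, 221 ± 81.4, 126 ± 53.2, 60.7 ± 23.5, 38.2 ± 9.84, 30.3 ± 10.9 and 3.34 ± 1.71 CPM per kilobase. Across libraries, the ranges of neighbours in that order overlapped from H2-Ab1 to H2-DMb1, while Cd74 lay above H2-Ab1 and Ciita below H2-DMb1 without overlap. Cd74 exceeded H2-Ab1 2.75 times and Ciita 167 times, comparing floxed means per length.

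**Figure D3:**
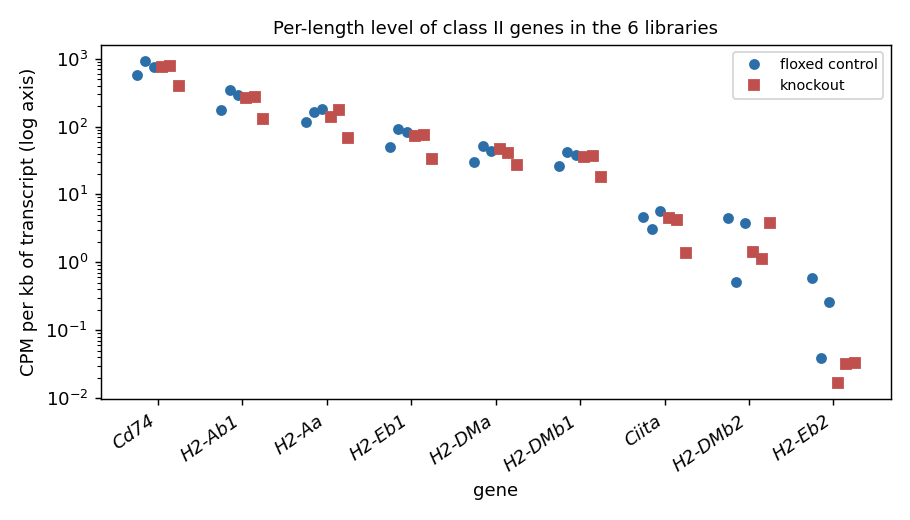
Level per kilobase of transcript (y axis, log scale, TMM-scaled CPM per kb) of the 7 members and of the copies H2-DMb2 and H2-Eb2 in floxed control (blue circles) and knockout (red squares) libraries. From Cd74 to Ciita the order is the same in 6 of 6 libraries, and H2-DMb2 and H2-Eb2 scatter more widely than the members.

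The structural genes kept close proportions while their levels moved. The ratio of H2-Ab1 to H2-Eb1 counts ran from 2.52 to 2.79 over the 6 libraries, a span of 1.11 times. Cd74 to H2-Ab1 ran from 2.97 to 3.84, H2-DMa to H2-DMb1 from 1.30 to 1.82, and H2-Ab1 to H2-Aa from 1.58 to 2.29. The spans were 1.29 times for Cd74 to H2-Ab1 and 1.45 times for H2-Ab1 to H2-Aa, smaller than the 2.35 to 2.75 times over which Cd74, H2-Aa and H2-Ab1 themselves ranged. For H2-DMa to H2-DMb1 the span was 1.40 times, beside 1.91 and 2.41 times for the genes themselves. Cd74 and Ciita did not keep such a proportion: Cd74 was 29.2, 69.5 and 30.7 times Ciita in the floxed libraries and 40.2, 44.2 and 67.3 times in the knockout libraries. The highest ratios thus fell in the library with the most Cd74 and in the library with the least.

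Some copies share sequence. None of the 50-base windows (the read length) of the H2-Aa, H2-Ab1, H2-Eb1, H2-DMa, Cd74 or Ciita transcript occurred exactly in a transcript of another gene. For H2-DMb1, 27.2% of 1355 windows also occurred in H2-DMb2, whose transcript was identical at 94.6% of aligned bases (318 gap columns not counted). The values of H2-DMb1 and H2-DMb2 are therefore uncertain. Both genes had estimated counts that were not whole, as had each other member except H2-Aa, so this does not set the pair apart. H2-DMa, H2-Eb1 and Ciita overlap antisense genes (Brd2, Gm20513 and Dexi among them). Whether counting used strand is not stated in the labels, and without strand the reads of such pairs cannot be told apart.

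Copies of the class II genes outside the 7 members followed another pattern. H2-Ob and H2-Oa encode the DO dimer, which restrains DM chiefly in B cells. H2-Ob had 46, 1 and 25 counts in the floxed libraries and 7, 8 and 7 counts in the knockouts. H2-Oa had 10, 2 and 14 counts against 6, 1 and 0, and H2-Eb2, a beta chain copy, had 23.1, 1.97 and 9.20 against 1, 2 and 2.01 estimated counts. These 3 genes did not pass the filter on low counts. Fitted without that filter over all 6 libraries, H2-Oa, H2-Ob and H2-Eb2 had log2 differences of -2.45, -2.34 and -3.27 and were not called (adjusted p = 0.301, 0.362 and 0.111 by edgeR). Without floxed control 2, H2-Ob and H2-Eb2 passed the filter, but only through their levels in floxed controls 1 and 3. EdgeR then called both, with log2 differences of -2.97 and -3.87, among 955 called of 13247 tested genes. That fit leaves out the floxed control with the fewest counts of both genes, so the calls do not bear on the difference between the groups. Among the floxed controls, libraries 1 and 3 were high and library 2 was low for each of them, as for Ciita and unlike the other 6 members. H2-DMb2 measured 6.29, 0.721 and 5.42 CPM in controls and 2.03, 1.61 and 5.49 CPM in knockouts (log2 -0.42 ± 0.67, SE; adjusted p = 0.842 by edgeR). Knockout 3, the lowest library for H2-DMb1, was thus the second highest for H2-DMb2, and the ratio of H2-DMb1 to H2-DMb2 ran from 4.54 to 83.4.

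B cell, T cell and pan-leukocyte markers, which mark immune cells a crypt preparation can hold, also peaked in floxed controls 1 and 3. Those were the 2 highest libraries for each of 10 tested B and plasma cell genes, 18 T cell and intraepithelial lymphocyte genes and 15 pan-leukocyte genes, against 18.1% of all genes and 1 of the 7 members (Ciita). The B and plasma cell list (14 of 17 genes in the table) summed to 73.3, 18.1 and 51.8 CPM in the floxed libraries and to 13.3 to 21.1 CPM in the knockouts. T cell genes (19 of 20) summed to 84.3 to 317 CPM in floxed libraries and 75.5 to 96.1 CPM in knockouts, and pan-leukocyte genes (15 of 15) to 67.4 to 232 and 57.7 to 67.7 CPM.

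Median log2 fold changes of these lists were -1.88, -1.37 and -1.49, with 9 of 10, 14 of 18 and 11 of 15 genes lower at an unadjusted p under 0.05 (9.63% of all genes were). By edgeR 0 of them were called, and by DESeq2 2 of 10, 6 of 18 and 6 of 15, against 2.42% of all genes. The B lineage genes with the smallest p were Derl3, Jchain, Cd22 and Pou2af1, with log2 differences of -1.08, -1.68, -2.07 and -1.79. Among T cell genes they were Gzma, Cd5, Gzmb and Il2rb (-1.40, -2.19, -1.36 and -1.90), and among pan-leukocyte genes Lcp1, Cd52, Arhgdib and Coro1a (-1.06, -1.71, -1.66 and -1.66). Adjusted p by edgeR ran from 0.124 to 0.214 over these 12 genes.

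Class II levels parted from the B cell, T cell and pan-leukocyte sums in the floxed controls. Floxed control 2 had the highest Cd74 and H2-Ab1 with a B cell sum of 18.1 CPM. Floxed control 1 had the highest of those 3 sums and the lowest floxed level of the 6 members other than Ciita. Dendritic cell genes summed to 89.4, 147 and 153 CPM in floxed controls 1, 2 and 3, and macrophage and monocyte genes to 477, 727 and 709 CPM. Among floxed controls these 2 sums, mostly Cst3 and Plac8, were thus lowest in floxed control 1, like the 6 members. Averaged over tested genes as log2 levels centred on each gene's mean, both lists were instead lowest in floxed control 2 among floxed controls. Dendritic cell genes averaged 0.65, -0.069 and 0.92 in floxed controls 1, 2 and 3, and macrophage and monocyte genes 0.12, 0.0094 and 0.21. The 2 highest libraries were floxed controls 1 and 3 for 5 of 6 and 3 of 8 genes, against 18.1% of all. H2-Ab1 was 20.8 times Cd79a, a subunit of the B cell receptor, in floxed control 1 and 719.7 times in floxed control 2. For Ciita, floxed controls 1 and 3 were the highest libraries, as they were for the tested B cell, T cell and pan-leukocyte genes. How much of the Ciita level came from leukocytes was not tested.

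Markers of dendritic cells were low. Of this list 13 of 14 genes were in the table and 6 were tested, with a median log2 fold change of -1.28. At an unadjusted p under 0.05, 4 were lower, against 9.63% of all genes. By edgeR 0 were called and by DESeq2 1, against 0.0155% and 2.42% of all genes. Its summed level, 89.4 to 153 CPM in the floxed controls and 78.0 to 105 CPM in the knockouts, was mostly Cst3, which is not confined to these cells. Itgax, the integrin CD11c, was at 4.63, 0.852 and 3.45 CPM against 1.13, 1.18 and 1.23 CPM. Cd83, a dendritic cell and B cell activation marker, had a log2 difference of -1.49 ± 0.34 (SE; adjusted p = 0.124 by edgeR), and Fscn1 and Siglech had -1.95 and -1.25.

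Of the macrophage and monocyte list 18 of 18 genes were in the table and 8 were tested, with a median of -0.057. At an unadjusted p under 0.05, 1 was lower, against 9.63% of all genes. By edgeR 0 of the 8 were called, and by DESeq2 1, against 0.0155% and 2.42% of all genes. The gene with the low unadjusted p, Lyz2, a lysozyme, had a log2 difference of -1.35 ± 0.31 (SE; adjusted p = 0.124 by edgeR). It ran from 1.74 to 6.89 CPM, and its estimated counts were not whole in 6 of 6 libraries. The Paneth list holds another lysozyme gene, Lyz1, and whether reads of both were kept apart was not tested. The summed level of 477 to 727 CPM in the floxed controls and 485 to 717 CPM in the knockouts was mostly Plac8. The defining marker Adgre1 had 0 counts in each floxed control and 0, 2 and 1 counts in the knockouts. The part of either cell type in the class II levels was not tested.

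**Figure D4:**
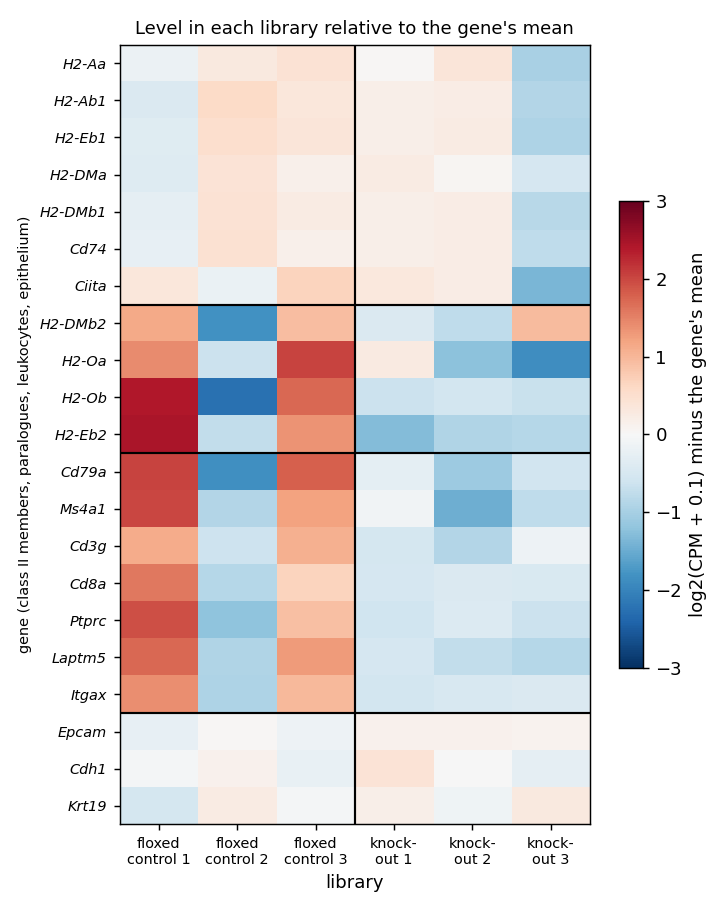
Level of each gene in each library as log2(CPM + 0.1) minus the gene's mean over the 6 libraries (colour scale), for the 7 members, 4 class II copies, 7 leukocyte markers and 3 epithelial genes, separated by black lines. Members are lowest in knockout 3, while the copies H2-Ob and H2-Eb2 and the leukocyte markers are highest in floxed control 1.

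In the rest of the class II pathway edgeR called no gene and DESeq2 called 1, Lgmn, against 0.0155% and 2.42% of all genes. Of 25 listed symbols, some of them older and newer names of the same gene, 21 were in the table and 16 were tested. Of the 16, 2 were lower and 0 higher at an unadjusted p under 0.05 (9.63% and 4.09% of all genes), and the median was -0.036. Lgmn, legumain, an endosomal protease that cleaves antigens, measured 63.3, 64.1 and 59.5 CPM in controls and 42.0, 28.2 and 33.6 CPM in knockouts. The groups did not overlap, and the log2 fold change was -0.85 ± 0.17 (SE; adjusted p = 0.0952 by edgeR). DESeq2 gave it an adjusted p of 0.0044 (log2 -0.82). EdgeR called it without floxed control 2 (log2 -0.82), where 955 of 13247 tested genes were called. Ctsl, cathepsin L, measured 14.5, 11.998 and 19.1 CPM against 10.3, 10.1 and 10.4 CPM (log2 -0.56 ± 0.21, adjusted p = 0.268 by edgeR), likewise without overlap.

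The ubiquitin ligase gene Marchf8 had a log2 difference of -0.32 ± 0.16 (adjusted p = 0.416 by edgeR). Creb1, whose protein binds the X box region, had 0.41 ± 0.22 (adjusted p = 0.439 by edgeR). Ctss, cathepsin S, which trims the invariant chain, averaged 49.6 ± 2.97 and 57.6 ± 7.01 CPM (SD, n = 3; adjusted p = 0.592 by edgeR), and Rfx5, an X box binding factor, 16.4 ± 1.48 and 13.5 ± 2.20 CPM (adjusted p = 0.567 by edgeR). Rfx5 was lowest in knockout 3, at 10.97 CPM.

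Interferon-gamma signalling, the route that can induce Ciita, had 31 of 32 listed genes in the table and 27 tested, with a median of 0.036 and 0 called by edgeR. At an unadjusted p under 0.05, 1 was lower and 1 higher, while 9.63% of all genes were lower and 4.09% higher. Ifngr1, the ligand binding receptor chain, measured 104, 139 and 103 CPM in controls and 169, 143 and 171 CPM in knockouts, without overlap (log2 0.48 ± 0.18, adjusted p = 0.266 by edgeR). Without floxed control 2 it was called (log2 0.64, adjusted p = 0.0462 by edgeR), as was Gbp5 (-2.12, adjusted p = 0.0410). In that setting 955 of 13247 tested genes were called. Gbp5 did not pass the filter with all 6 libraries, and here passed it only through floxed controls 1 and 3. Among the guanylate binding protein genes, Gbp9 had a log2 difference of -1.10 ± 0.50 (adjusted p = 0.364 by edgeR) and Gbp6 of 0.77 ± 0.38 (adjusted p = 0.401). Ubd, a ubiquitin-like protein, had -0.71 ± 0.44 (adjusted p = 0.511 by edgeR).

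Knockout 3 was the lowest library for 11 of the 27 tested interferon-gamma genes, against 21.1% of all genes. Tgtp2, an interferon-induced GTPase, measured 6.03, 4.92 and 7.48 CPM in controls and 7.28, 6.92 and 1.96 CPM in knockouts. Nlrc5, the class I counterpart of Ciita, measured 8.38, 5.05 and 7.48 CPM against 10.4, 10.03 and 3.19 CPM. In both, knockout 3 was the lowest and floxed control 2 the lowest floxed control, as for Ciita. The interferon-gamma gene Ifng itself had 0 or 1 counts a library and was not tested.

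Class I presentation had 27 of 27 listed genes tested, a median of -0.0070 and 0 called by edgeR. At an unadjusted p under 0.05, 2 were lower and 0 higher, against 9.63% and 4.09% of all genes. H2-K1, a classical class I heavy chain, measured 484, 706 and 677 CPM in controls and 645, 560 and 474 CPM in knockouts. The nonclassical genes H2-T22 and H2-Q7 had log2 differences of -0.50 ± 0.17 and -0.80 ± 0.29 (adjusted p = 0.230 and 0.261 by edgeR). H2-T3, the thymus leukaemia antigen of gut epithelium, had 0.32 ± 0.16 and H2-Q2 -0.37 ± 0.19 (adjusted p = 0.405 and 0.410 by edgeR). The class I family shares near-identical copies, so values of single members are uncertain. Knockout 3 was the lowest library for 12 of the 27, against 21.1% of all genes. H2-Ab1 relative to H2-K1 was 0.432, 0.602 and 0.526 in controls and 0.499, 0.587 and 0.326 in knockouts, so knockout 3 was the lowest also on that scale.

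Costimulatory genes, which antigen presenting cells use beside class II, were hardly detected. Of 9 listed genes 8 were in the table and 3 were tested, with 0 at an unadjusted p under 0.05 and a median of -0.044, the value of Tnfsf9. Cd86 had 2, 0 and 4 counts in the floxed controls and 0 in each knockout, and Cd80 and Cd40 had 2 to 5 counts a library. Icosl and Icam1 had log2 differences of 0.33 ± 0.28 and -0.52 ± 0.39 (adjusted p = 0.670 and 0.612 by edgeR).

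Genes listed as companions of high class II levels in enterocytes had 12 of 12 in the table and 10 tested. Their median was 0.0065, with 5 negative, 5 positive and 0 at an unadjusted p under 0.05 by edgeR. Retnlb and Fut2 had log2 differences of -1.37 ± 0.67 and -0.52 ± 0.34, and Reg3a, an antimicrobial lectin, had -0.41 ± 0.30 (adjusted p = 0.396, 0.541 and 0.601 by edgeR). Ido1 went the other way, at 0.88 ± 0.65 (adjusted p = 0.602 by edgeR). Epithelial identity genes had 13 of 13 in the table and 12 tested, with a median of 0.064 and 0 at an unadjusted p under 0.05. Knockout 3 was the lowest for 2 of those 12 genes, beside 7 of the 7 class II members and 21.1% of all genes.

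Genes with a like pattern were sought by Pearson's r, over the 6 libraries, with the mean centred log2 level of H2-Aa, H2-Ab1, H2-Eb1 and Cd74. Among the 8 highest outside the members were Dcbld1, Vdr, Cd9, Gm5431, Tent4a, Fam53c and Fgr, with r from 0.94 to 0.98 and Spearman's rho from 0.60 to 0.94. They were chosen for this r among all genes of sufficient level, so no p is given. Their ranges were narrower than most members': Vdr, the vitamin D receptor, ran from 387 to 447 CPM, and Dcbld1 from 39.6 to 45.2 CPM. Over these genes the highest library exceeded the lowest by 1.14 to 1.92 times. By the same measure H2-DMb1, which was not part of that mean, had r of 0.997, H2-DMa 0.93 and Ciita 0.73. Spearman's rho was 1 for H2-DMb1, 0.83 for H2-DMa and only 0.2 for Ciita.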

How the data were processed

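Total RNA of 6 small intestinal crypt libraries was sequenced as 50-base single-end mRNA reads, per the labels' protocols, and the submitters' processing notes name build mm10. The authors deposited estimated counts per gene, not normalised, as the values themselves show. In each library 31.1% to 35.2% of values were not whole, so they were rounded, although whole counts had been assumed in planning. Aligner, counter, annotation and strand were not stated in the labels. Positions and promoters are RefSeq for GRCm38.p6, and transcript lengths GENCODE M21, both on the assembly of mm10.

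All genes were fitted with edgeR 4.0.16 (R 4.3.3): filterByExpr, TMM, robust glmQLFit, glmQLFTest, knockout over floxed control, Benjamini-Hochberg adjusted p under 0.05. Intervals of 95% use the moderated degrees of freedom. Alternatives were DESeq2 1.42.0, limma-voom (limma 3.58.1), other scaling and filters, thinning, a replicate block and left-out libraries; leaving out floxed control 2 and knockout 1 was added after the data were seen. No library pair was identical.

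The members, lists, tests and alternatives were chosen with earlier results of these data known. Named were the members, up to 4 genes with the smallest p of a list, and 8 genes most like the members, of which 1 is not reported here. The class II copies, Ctss, Rfx5, Tgtp2, Nlrc5, Ifng, H2-K1, Cd40, Cd80, Cd86, Cd79a, Adgre1, Cst3, Plac8, Lgr5, Per2, Epcam and the lower 2 blocks of the heat map were chosen after their values were seen. Figures used Python 3.11.15 and matplotlib 3.10.9.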

Additional observations from a re-analysis of the deposited data

How the results depend on the processing

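Under 16 alternatives 0 of the 7 members were called and 0 had an unadjusted p under 0.05, and their lowest adjusted p was 0.240. Dropping 1 library gave the members a median between -0.47 (knockout 2 dropped) and 0.0036 (knockout 3 dropped), and it was -0.44 without floxed controls 1 and 3. Of 112 member values, 106 kept a negative sign. With single libraries left out, H2-Aa ran from -0.59 to 0.0036, H2-DMa from -0.30 to 0.065 (0.063 without knockout 3), H2-DMb1 from -0.40 to 0.041 and Cd74 from -0.37 to 0.053; Ciita was 0.15 without floxed controls 1 and 3. The cause was not tested.

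Genes called over the whole table numbered 2. They numbered 0 with DESeq2 size factors or TMM without the 50 most abundant genes, 324 by DESeq2, 67 with no filter, 0 to 955 with single libraries left out, 12 without floxed controls 1 and 3 and 920 without floxed control 2 and knockout 1. Pathway calls were 1 by DESeq2 (Lgmn) and 0 to 3 with single libraries left out (without floxed control 2: Lgmn, H2-Ob and H2-Eb2). They were 4 without floxed control 2 and knockout 1 (H2-Oa in addition). Over all genes tested, those 2 settings called 955 of 13247 and 920 of 13030. H2-Oa, H2-Ob and H2-Eb2 did not pass the filter with all 6 libraries. Interferon-gamma calls were 0 to 2 (without floxed control 2: Ifngr1 and Gbp5), beside the same 955 of 13247 genes. Gbp5 was not tested with all 6 libraries.

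With a replicate block 39 genes and 0 members were called, and the members' median was -0.32. Across genes, deviations from the group means correlated at -0.18, -0.27 and 0.068 between libraries of the same number (1, 2 and 3). Deviations from means of 3 libraries, some set apart by lymphocyte or clock genes, cannot decide whether the numbers pair the libraries. With 3 libraries a group and this spread, the interval of each member included both no change and, for each but H2-DMa, a fall of 0.84 or more on the log2 scale.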
